A study of Mus musculus with 3 samples.

Results

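Cluster 13 is a small group of pituitary cells that the authors' deposited cell annotation numbers but does not name. It was taken as every cell with that cluster number, and it held 350 of 37474 cells. The study is single-cell RNA sequencing of dissociated mouse pituitary in 3 libraries, 1 for each genotype at the Tpit locus, with the labels TpitWT, TpitHT and TpitKO (WT, HT and KO below). What HT stands for, the allele, and the age and number of the mice are not given in the sources used here, and dead cells were sorted out with propidium iodide. The cluster held 87 WT, 139 HT and 124 KO cells. With 1 library per genotype no difference between genotypes can be set against the spread between animals, so every interval below covers counting error only, at 95%, and no test is given.

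The anterior pituitary is made of hormone cells that each secrete a different product. Gonadotropes make luteinising and follicle-stimulating hormone from the common alpha subunit Cga with Lhb or Fshb, and thyrotropes make thyroid-stimulating hormone from Cga with Tshb. The factor Gata2 is known in both cell types, Nr5a1 in gonadotropes, and Pou1f1 (Pit1) in thyrotropes, somatotropes and lactotropes, while Tpit, encoded by Tbx19, drives the Pomc-producing corticotropes and melanotropes.

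On these markers cluster 13 did not match 1 hormone cell type. It held Cga and the gonadotrope genes Gata2, Nr5a1, Gnrhr and Tgfbr3l together with Pou1f1 and Dio2, which were low in cluster 3, the cluster where 8 of 9 gonadotrope markers were highest. Its Lhb, Fshb and Tshb stood far below the clusters where those genes were highest. Its own leading genes included the histone gene H2bu2, Fanca, Gsg1l and the 3 neurofilament subunits. It is called cluster 13 throughout, and values given as 3 numbers are in the order WT, HT, KO.

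The cells formed 1 compact group on the deposited UMAP, a plane on which cells of alike expression lie close together. Of the 350 cells, 347 lay within 2 units of the group's median position, and 98.7% of the 20 nearest neighbours of its cells belonged to the same cluster. The 3 cells farther away were 1 WT and 2 HT cells. The nearest cluster medians were those of cluster 14 at 3.79 units, cluster 6 at 4.21 and cluster 5 at 5.39, whereas cluster 3 lay 11.1 units away. All 3 libraries filled the same area: neighbours of the same library made up 29.0%, 44.8% and 47.1% for cells of WT, HT and KO, which supplied 24.9%, 39.7% and 35.4% of the cluster. Distances on such a plane are not proportional to differences in expression.

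**Figure D1:**
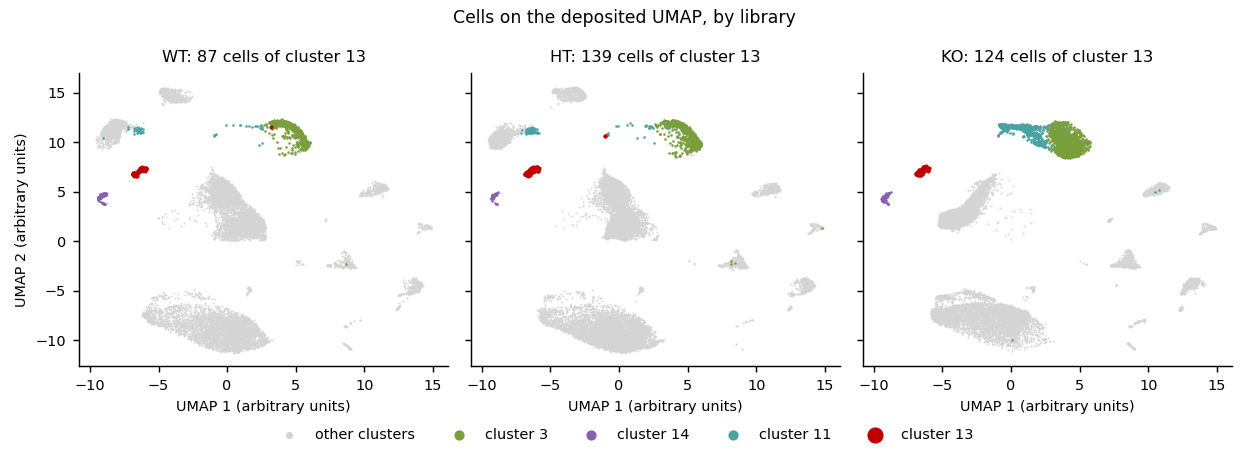
Each point is 1 cell at its deposited UMAP position in arbitrary units, with 1 panel per library. Cluster 13 (87, 139 and 124 cells) sits in the same place in all 3 panels, near cluster 14 and away from cluster 3.

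Cluster 13 made up 0.775% of WT cells (interval 0.621 to 0.955), 1.08% of HT cells (0.911 to 1.28) and 0.924% of KO cells (0.770 to 1.10). The KO share was 1.19 times the WT share (0.899 to 1.59) and 0.854 times the HT share (0.665 to 1.10), and both intervals include equal shares. The HT share was 1.40 times the WT share (1.06 to 1.85), an interval that leaves out equal shares but covers counting error only. Counted over cells outside clusters 6, 7 and 11, whose own numbers of cells differ between the genotypes, the KO share was 1.06 times the WT share (0.802 to 1.42). The cluster was therefore small in each library, and it was the 14th largest of 21 clusters.

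A cell of cluster 13 gave on average 6483, 8526 and 7099 counts and 2419, 2714 and 2430 genes in WT, HT and KO. These depths were in the middle of the clusters of each library (10th of 19, 10th of 18 and 8th of 17 with 20 or more cells) and below those of cluster 3 (11207, 15808 and 12862 counts per cell) and cluster 14 (9739, 11051 and 10526). Mitochondrial transcripts took 2.94%, 2.73% and 2.73% of its counts, the highest share in WT and the 2nd highest in HT and KO among clusters of 20 or more cells. The 7 hormone genes Gh, Prl, Pomc, Cga, Lhb, Fshb and Tshb together took 4.42%, 5.19% and 5.93%. Counts per cell were not analysed here, so medians, thinning to equal depth and a doublet caller were not possible; 5 of its cells carried a barcode that also occurred in another library, none of them in a cell of cluster 13 there. Whether some cells are doublets was not tested.

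Levels are the cluster's summed counts scaled to a common total (CPM). Free RNA from broken hormone cells reaches every droplet, so each hormone gene is given beside cluster 9, where 12 of 12 endothelial markers were highest and which should make no hormone, at mean depths of 3610, 4343 and 4250 counts per cell. Cga was the highest hormone gene of cluster 13, at 22458, 28808 and 40546 CPM, with counts in 100% of its cells. In cluster 9 it was at 1931, 1777 and 3507 CPM. Cga thus stood well above the level of the endothelial-marker cells in each library, and below cluster 3, where it was at 131177, 166169 and 173212 CPM, and cluster 14, where it was at 74078, 67536 and 103256 CPM.

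Lhb, the beta subunit of luteinising hormone, was at 688, 743 and 628 CPM in cluster 13 and had a count in 59.8%, 66.2% and 71.0% of its cells. Cluster 9 had it at 111, 111 and 106 CPM, in 28.0%, 26.7% and 30.4% of cells. Lhb stood above that level in all 3 libraries, at about 5% of its level in cluster 3 (5.41%, 5.04% and 5.59%). Tshb, the beta subunit of thyroid-stimulating hormone, was at 743, 462 and 1137 CPM in cluster 13 and at 368, 251 and 408 CPM in cluster 9. Tshb had counts in 66.7%, 68.3% and 87.9% of cells of cluster 13 and in 58.5%, 50.2% and 75.2% of cluster 9. It stood higher than in cluster 9 in each library, but at only 1.14%, 1.29% and 2.25% of its level in cluster 14, the cluster with the highest Tshb. Fshb was at 140.1, 105 and 35.2 CPM against 52.2, 54.9 and 51.2 CPM in cluster 9, with counts in 21.8%, 19.4% and 17.7% against 15.9%, 16.7% and 16.5% of cells. Its KO level lay below that of cluster 9 and was not told apart from background, and the shares of cells differ little at the greater depth of cluster 13. Cluster 9 also had more Gh and Prl than cluster 13, as given below, so it may not match the free RNA of cluster 13.

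Growth hormone, prolactin and Pomc, the products of somatotropes, lactotropes and the Tpit-dependent cells, showed no such excess. Gh was at 9018, 12835 and 7826 CPM in cluster 13 and 94501, 39604 and 26901 CPM in cluster 9. Prl was at 10568, 7958 and 9093 CPM in cluster 13 and 38061, 9713 and 24120.2 CPM in cluster 9. Pomc was at 573, 1005 and 17 CPM in cluster 13 and 3212, 1295 and 10.7 CPM in cluster 9. All 3 genes were lower in cluster 13 than in cluster 9 in each library, apart from Pomc in KO, where both clusters were near 0. Tbx19 itself, which checks the genotype, had 0, 2 and 1 counts in the cluster; over all other cells it was at 17.7, 12.5 and 0.687 CPM, so the KO library was low for it, and at these counts the genotypes cannot be told apart within cluster 13.

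**Figure D2:**
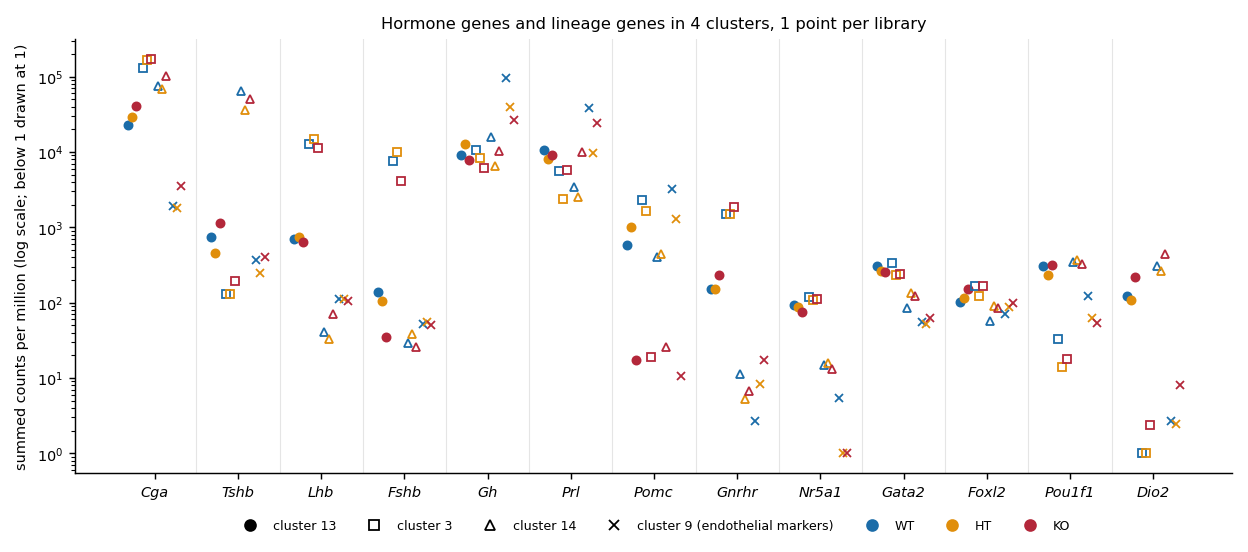
CPM (log scale) of hormone genes and lineage genes in clusters 13, 3, 14 and 9, with 1 point per library coloured by genotype; values under 1 are drawn at 1. In cluster 13, Gata2, Nr5a1 and Foxl2 lie near the level of cluster 3. Pou1f1 there lies near the level of cluster 14 in WT and KO and below it in HT. Dio2 lies far above cluster 3, and Gh, Prl and Pomc lie at or below cluster 9 except for Pomc in KO.

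Beside clusters 3 and 14, the factors and receptors gave the same double picture. These were not the clusters with the most similar profile over genes. The correlation with cluster 13 was highest for cluster 11 (0.932, 0.933 and 0.941), then cluster 17 (0.911, 0.915 and 0.910). Cluster 3 had 0.893, 0.884 and 0.903 and cluster 14 had 0.881, 0.908 and 0.910. The levels of these factors in clusters 11 and 17 are not given here. Gata2, a zinc-finger factor, was at 305, 262 and 253 CPM in cluster 13, 333, 232 and 241 CPM in cluster 3 and 84.6, 132 and 124 CPM in cluster 14. Nr5a1 (SF1), the gonadotrope nuclear receptor, was at 94.0, 88.6 and 75.0 CPM in cluster 13 and 118, 109.7 and 111 CPM in cluster 3, but only 14.7, 15.7 and 13.3 CPM in cluster 14 and 5.35, 0 and 0.853 CPM in cluster 9. Both therefore lay close to cluster 3. Foxl2, a forkhead factor that acts on the Fshb gene, was at 101, 116 and 151 CPM against 164, 121 and 167 CPM in cluster 3. Isl1, a LIM homeodomain factor, was at 170.2, 165 and 184 against 202, 179 and 226 CPM, so both were at or somewhat below cluster 3. Gnrhr, the receptor for gonadotropin-releasing hormone, was at 152, 153 and 232 CPM in cluster 13, 1478, 1520.4 and 1880.5 CPM in cluster 3 and 11.3, 5.22 and 6.66 CPM in cluster 14. It thus lay between these clusters, at 10.3%, 10.0% and 12.3% of cluster 3, and was counted in 36.8%, 42.4% and 53.2% of cells against 0.966%, 2.14% and 4.89% in cluster 9.

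Pou1f1 was at 303, 229.5 and 314 CPM in cluster 13 and 344, 371 and 327 CPM in cluster 14, against 32.4, 13.9 and 17.9 CPM in cluster 3 and 120.5, 61.5 and 53.3 CPM in cluster 9. A count of it was found in 52.9%, 48.2% and 56.5% of cells of cluster 13, 14.9%, 12.9% and 14.7% of cluster 3 and 16.4%, 15.7% and 13.8% of cluster 9. Cluster 13 was therefore close to cluster 14 for Pou1f1 in WT and KO and below it in HT. It was above clusters 3 and 9 in every library. Dio2, the deiodinase that makes active thyroid hormone, was at 124, 109 and 216 CPM against 302, 263 and 448 CPM in cluster 14, and Trhr, the receptor for thyrotropin-releasing hormone, at 23.1, 17.7 and 14.8 CPM against 129, 94.0 and 126 CPM. Both were near or at 0 in cluster 3, with Dio2 at 0.994, 0.301 and 2.34 CPM, and cluster 13 held them at less than 0.5 of the level of cluster 14. Rxrg, a retinoid X receptor, followed Pou1f1, at 86.9, 70.9 and 103 CPM in cluster 13, 84.6, 122 and 98.0 CPM in cluster 14 and 1.19, 2.51 and 1.64 CPM in cluster 3.

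Whether single cells carried both sets can be bounded from how many cells had each gene. Gata2 was counted in 50, 92 and 74 cells of cluster 13 and Pou1f1 in 46, 67 and 70 cells. At least 9, 20 and 20 cells thus had counts of both. Gata2 is known in gonadotropes and thyrotropes alike, so this pair does not tell whether 1 cell carried both sets. For Lhb and Tshb the least number was 23, 48 and 73 cells, but both genes also have counts in cells of cluster 9. For Nr5a1 and Pou1f1 the bound was 0 in all 3 libraries, so the sums do not say whether they met in 1 cell. For Gnrhr and Pou1f1 it was 0 in WT and HT and 12 cells in KO, but both genes also have counts in some cells of cluster 9.

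The leading genes of cluster 13 were ranked by the smallest, over the 3 libraries, of the log2 ratio of its level to all other cells, after adding 10 CPM; 4121 genes had at least 20 counts and 20 CPM in the cluster in each library. Of these, 261 (6.33%) stood at a log2 ratio of 1 or more in every library. Over the highest other cluster, 11 of the 4121 (0.267%) did so, and 176 (4.27%) stood above every other cluster in every library. Hormone genes take a large share of the counts of other cells, so the median gene stood 0.51, 0.44 and 0.43 above them on the log2 scale; with totals that leave out hormone and mitochondrial genes that shift was 0.04, 0.04 and 0.03, and 125 genes stood at a log2 ratio of 1 or more over all other cells. These genes also shaped the clustering, so they are a description. Of the 30 top genes, 19 stood above every other cluster in all 3 libraries, and the next highest cluster was most often cluster 3, 14 or 11.

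The genes most restricted to cluster 13 were Gsg1l, Fanca, Slc35g1, Nrn1l, Kcng4 and Dnm1, the first 6 by the ratio to the highest other cluster. Gsg1l, an auxiliary subunit of AMPA glutamate receptors (chr7:125878420-126082411), was at 63.8, 57.4 and 95.4 CPM in cluster 13 and 0.834, 0.642 and 1.49 CPM in all other cells. Its level was 7.14, 6.59 and 10.5 times that of the highest other cluster. Fanca, a member of the Fanconi anaemia DNA repair complex (chr8:123268300-123318576), was at 133, 109.7 and 94.3 CPM, with counts in 44.8%, 46.8% and 34.7% of cells, against 1.82, 1.40 and 1.04 CPM in all other cells and at most 30.0, 17.5 and 4.16 CPM in another cluster. Both were therefore low outside cluster 13. Dnm1, the dynamin of synaptic vesicle endocytosis, was at 74.5, 77.6 and 87.5 CPM against 2.97, 3.1 and 3.61 CPM, and Kcng4, a potassium channel subunit, at 70.9, 47.3 and 65.9 CPM against 1.13, 1.16 and 2.74 CPM. Slc35g1, a member of the solute carrier family, was at 101, 67.5 and 116 CPM against 4.83, 4.32 and 5.48 CPM, and Nrn1l, related to neuritin, at 63.8, 48.1 and 48.8 CPM against 1.06, 2.13 and 1.34 CPM. Positions are on GRCm38, matched by coordinates to GENCODE M21; the counts are per gene, so they do not place reads within exons.

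The 1st gene by the ratio to all other cells was H2bu2, a histone H2B gene (chr11:58948920-58949533), at 296, 365 and 354 CPM against 19.5, 18.6 and 16.2 CPM in all other cells. It was counted in 69.0%, 77.0% and 70.2% of cells and was at 2.07, 2.41 and 4.32 times the level of the highest other cluster. Histone genes have near-identical copies, so its level is uncertain, as is that of Hspa1b, an inducible heat shock protein with the copy Hspa1a.

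Some other leading genes are known from neurons, a grouping made after their values were seen. Of the 3 neurofilament subunits, the light chain Nefl was at 273, 295 and 352 CPM against 8.37, 9.88 and 26.9 CPM in all other cells. The medium chain Nefm was at 142, 108 and 189 against 10.2, 7.28 and 21.8 CPM, and the heavy chain Nefh at 126, 124 and 139.7 against 13.7, 16 and 23.2 CPM. Cluster 3 was next highest for Nefl and Nefm and cluster 11 for Nefh. All 3 subunits stood above every other cluster in each library. Nefl (chr14:68083863-68089095) lies within the annotated span of Nefm on the other strand, and how strand was counted is not given in the sources used here, so their reads cannot be fully told apart. Stmn2, a microtubule regulator of growing axons, was at 231, 156 and 249.9 CPM against 6.85, 12.8 and 15 CPM; Nrgn (neurogranin), a calmodulin-binding protein of dendrites, at 67.4, 65.8 and 169 CPM against 1.86, 2.35 and 1.99 CPM. In cluster 11 Stmn2 reached 97.8, 206 and 114 CPM, so in HT cluster 13 was not the highest.

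Several leading genes encode channels, receptors or parts of the exocytosis machinery; they were grouped after their values were seen. Trpc5, a cation channel, was at 86.9, 102 and 132 CPM, Kcnd2, an A-type potassium channel, at 106, 94.5 and 132 CPM, and Kcnab3, an auxiliary potassium channel subunit, at 40.8, 38.8 and 43.2 CPM. Gabrd, the delta subunit of GABA-A receptors, was at 105, 97.9 and 39.8 CPM against 1.69, 1.71 and 2.43 CPM in all other cells, and Stx1a, a syntaxin of the exocytosis machinery, at 62.1, 73.4 and 61.3 CPM against 5.06, 4.97 and 6.31 CPM. Of these 5 genes, Gabrd and Stx1a were above every other cluster in all 3 libraries, as was Kcnd2. Tmem35a, a chaperone of nicotinic acetylcholine receptors, and Sorl1, a sorting receptor, were at 119, 84.4 and 55.7 CPM and at 261, 215 and 254 CPM, each over 2-fold above the highest other cluster in every library. The list of ion channels of excitable cells as a whole was near the background: 6 of 7 compared members were higher than in all other cells in every library, where 75.5% of genes were, and 1 of 7 stood at a log2 ratio of 1 or more, with medians of 0.69, 0.81 and 0.40 against 0.51, 0.44 and 0.43 for all genes.

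The remaining leading genes were of mixed function. Selenbp1, a selenium-binding protein, was at 223, 262 and 97.7 CPM against 2.81, 2.89 and 2.67 CPM in all other cells, and Nppc, the precursor of C-type natriuretic peptide, at 246, 177 and 96.6 CPM against 6.64, 6.55 and 5.51 CPM. In WT and HT both stood above every other cluster; in KO Selenbp1 was at 0.867 times cluster 15. Emc9, of the membrane protein insertion complex of the endoplasmic reticulum, was at 167, 156 and 166 CPM, and Fitm1, a lipid droplet protein whose gene lies 4562 bases from Emc9 on chromosome 14, at 47.9, 50.6 and 38.6 CPM. Pcolce, which enhances procollagen processing, and Sdc4, a heparan sulphate proteoglycan, led against the pooled cells but not against the highest other cluster: Pcolce was higher in cluster 15 (94.0, 91.1 and 117 CPM in cluster 13, and 0.195, 0.117 and 0.220 times the level of cluster 15) and Sdc4 in cluster 10. Dio2 likewise led against the pooled cells but was higher in cluster 14. Tmem159, Plxdc1, Tmem191c, Vstm2l and Plekha3 completed the 30, each at between 59.9 and 293 CPM. Nrn1l overlaps Edc4 on the same strand, Pcolce overlaps Fbxo24, and Fanca, Emc9, Tmem191c and Dnm1 overlap a neighbour on the other strand, so part of their counts could belong to the neighbour.

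**Figure D3:**
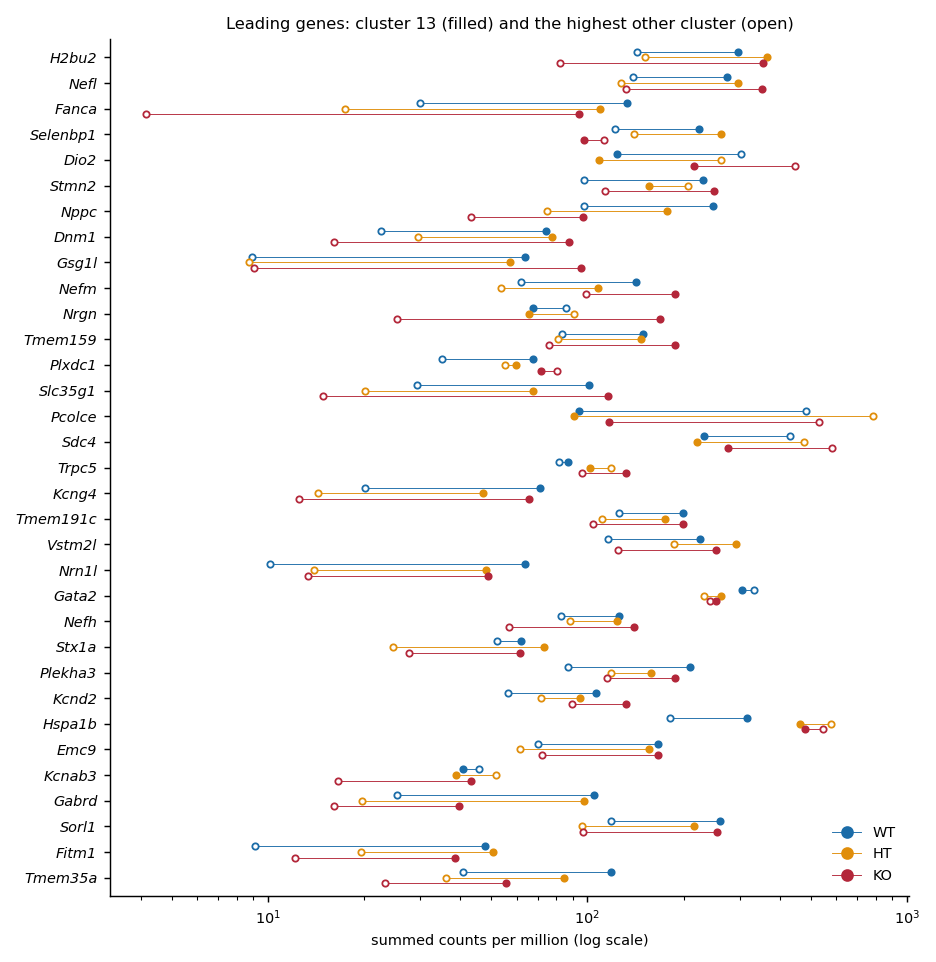
CPM (log scale) of the 33 leading genes in cluster 13 (filled) and in the other cluster with the highest level in the same library (open), joined by a line for each of the 3 libraries. Gsg1l, Fanca, Kcng4 and Nrn1l are among the genes with the widest gaps, whereas for Pcolce, Sdc4 and Dio2 the open points lie to the right of the filled ones in all 3 libraries.

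Mixed identity was examined by taking the top 20 leading genes of each other cluster, by the same rule, to cluster 13. Each cluster's genes were set against the pooled cells outside that cluster and cluster 13. Of the 20 of cluster 3, 15 stood at a log2 ratio of 1 or more in every library. The median level of the 20 was 32.1% of that in cluster 3. Lhb is among the 15. With cluster 3 kept in, the other cells of KO had Lhb at 1944 CPM against 628 CPM in cluster 13. For cluster 14, 8 of 20 stood so (median 26.9% of the own level), and for clusters 11, 0 and 7, 4 of 20 each. Only libraries with 20 or more cells of the source cluster were used. Clusters 2, 6 and 7 were thus judged on WT and HT alone, cluster 16 on WT and KO, and cluster 18 on KO alone. Over all genes the share was 6.33%, or 4.94% of the 6036 genes with 20 CPM in cluster 13 or in the other cells of every library. Those shares are against all other cells, with no source cluster left out, so they are not a like baseline. None of the 20 genes of clusters 8, 9, 16 and 19 stood at a log2 ratio of 1 or more. At least 13 of 20 genes of clusters 8, 9, 10, 15, 16, 17, 18, 19 and 7 were at 10% or less of their own cluster's level.

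Within the genes of cluster 3 the levels were uneven. Gata2, Isl1, Foxl2 and Kcnk3 stood at 61.7% to 122% of their level in cluster 3, and Nefl was higher than there. Chga (chromogranin A), the granule protein, was at 4103, 5182 and 4337 CPM, 42.0%, 64.8% and 54.2% of cluster 3, and Tgfbr3l, a coreceptor of inhibin, at 725, 996 and 642 CPM, 24.5%, 29.9% and 23.2%. In cluster 9, Chga was at 274, 82.8 and 152 CPM and Tgfbr3l at 17.4, 11.5 and 20.5 CPM. Spp1 (osteopontin), Aebp1 and Rgs4, a regulator of G-protein signalling, were low, at 8.94% of cluster 3 or less in each library. The gonadotrope factors were thus near their level in cluster 3 while its hormone subunits and these 3 genes were not.

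A direct comparison with cluster 3, added after the values were seen, gave 143 of 5339 genes (2.68%) at a log2 ratio of 1 or more in cluster 13 in every library and 99 (1.85%) at -1 or less. Among the 12 highest were Ctxn3 (cortexin 3), at 231, 213 and 182 CPM against 9.14, 4.42 and 5.05 CPM in cluster 3, Gria2, an AMPA receptor subunit, at 161, 102 and 161 against 4.57, 2.81 and 4.35 CPM, and S100a10, the annexin A2 partner, at 463, 373 and 425 against 33.2, 32.2 and 37.1 CPM. Lpl, lipoprotein lipase, lay on the low side, at 0, 1.69 and 2.27 CPM against 128, 139 and 121 CPM, as did the chemokine Cxcl14, at 1.77, 4.22 and 9.09 against 171, 248 and 183 CPM. Cluster 13 was therefore low for several non-hormone genes of cluster 3 as well as for its hormones.

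Against cluster 14, 144 of 4549 genes (3.17%) stood at a log2 ratio of 1 or more in every library and 59 (1.3%) at -1 or less. Klf2, a Kruppel-like factor, was at 193, 143 and 139.7 CPM against 0, 0 and 3.03 CPM, Hes6, a helix-loop-helix factor, at 450.4, 436 and 311 against 39.5, 40.0 and 38.7 CPM, and the annexin Anxa2 at 86.9, 107 and 87.5 against 0, 1.74 and 0.605 CPM. Thy1, a surface glycoprotein, was lower, at 10.6, 20.3 and 26.1 against 221, 273 and 212 CPM, as were the calcium buffer Pvalb, at 5.32, 4.22 and 4.54 against 102, 167 and 79.3 CPM, and Dlk1, a Notch-related ligand, at 359.9, 501 and 136 against 3014, 3642 and 1640.4 CPM. Jun, an immediate early gene that dissociation can induce, was at 2293, 2172 and 2424 CPM in cluster 13 against 352, 183 and 220.3 CPM.

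As a further description, the profile of cluster 13 was fitted in each library by a non-negative sum of the profiles of the other clusters of 20 or more cells, on square roots of CPM. Cluster 11 took 28.1%, 27.6% and 29.9% of the fitted weight, cluster 3 took 24.0%, 23.8% and 23.7%, cluster 17 took 19.1%, 17% and 17.7%, and cluster 14 took 13.3%, 16.9% and 20.9%. Cluster 0 took 11.9% and 7.94% in WT and HT but 0.919% in KO. The fit took up 0.936, 0.953 and 0.948 of the variance of the profile over genes, on that scale. The weights depended on the scale: on CPM without hormone genes clusters 3 and 14 together took a mean of 20.9% of the weight in place of 40.9%, and cluster 7 took 38.4% in both WT and HT. On that scale cluster 17 took 0%, 3.96% and 1.62%, and cluster 11 took 23%, 21.4% and 4.52%.

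The genes least well given by the fitted sums were counted as well. Of the 4121 genes, 77 (1.87%) stood at a log2 ratio of 1 or more over the fitted sum in every library, and 10 stood at -1 or less. They include 29 of the 30 leading genes, which follows from how those were chosen and adds nothing to it. Outside the leading genes the highest were Igfbp2, an insulin-like growth factor binding protein, Il18bp, a decoy receptor of interleukin 18, Tubb3, a neuronal tubulin, and Susd3.

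**Figure D4:**
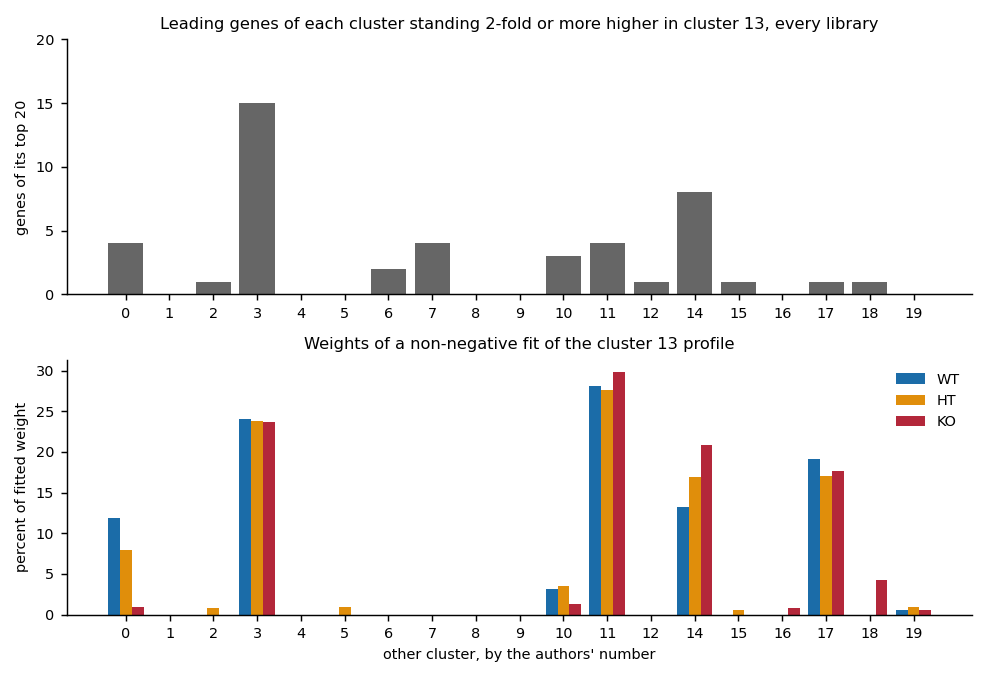
Upper panel: the number of the top 20 leading genes of each other cluster that stood at a log2 ratio of 1 or more in cluster 13, 15 for cluster 3 and 8 for cluster 14 (clusters 1, 4, 5 and 12 had fewer than 20 such genes to count). The ratio is to the pooled cells outside both clusters, in every library with 20 or more cells of the other cluster. Lower panel: the percent of the fitted weight of each other cluster in the fit of cluster 13, by library; clusters 3, 11, 14 and 17 carry most of it in all 3 on the square-root scale shown, which is not so for cluster 17 on CPM without hormone genes.

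Most marker lists of other cell types were low. Against all other cells, higher members are read beside the 75.5% of the 6036 genes that stood higher in every library and the 7.06% that stood lower. The 7 neutrophil markers were at 0 in all 3 libraries; the summed level was 1.77, 9.28 and 3.41 CPM for the 12 endothelial markers, 17.7, 5.91 and 17 CPM for 12 macrophage markers, 5.32, 0.844 and 2.27 CPM for 11 T and NK cell markers and 10.6, 15.2 and 20.4 CPM for 10 pituicyte markers. Of 6 macrophage markers that could be compared, 6 were lower, as were 3 of 4 stem cell markers. A gene was compared if it had 20 CPM in cluster 13 or in the other cells of each library. No macrophage marker had 20 CPM in cluster 13, so each compared one passed through the other cells and could only come out lower. The same holds for any stem cell or fibroblast marker under 20 CPM in cluster 13. Of 5 compared fibroblast markers 3 were lower and 2 higher in every library, 1 of them at a log2 ratio of 1 or more, and the 11 on the list summed to 97.5, 113 and 96.6 CPM. The epithelial marker Epcam was at 1051, 1159 and 1484 CPM, near clusters 3 and 14. Avp and Oxt, the neurohypophyseal hormones, were at 0 in WT and HT and at 7.95 and 12.5 CPM in KO, and Rbfox3, a marker of mature neurons, was at 0 in all 3.

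Neuron markers were present in part, with 3 of 9 highest in cluster 13 and 3 of 9 in cluster 7. Of 9, 5 could be compared and all 5 were higher in every library, with a median log2 ratio of 1.58, 1.78 and 1.23 against 0.51, 0.44 and 0.43 for all genes. Besides Nefl, Stmn2 and Tubb3 these were Snap25, a SNARE of exocytosis, at 152, 173 and 183 CPM, and Syt1, the calcium sensor of release, at 109.9, 109 and 106 CPM. Stmn2 was under the floor for comparison in all other cells, at 6.85, 12.8 and 15 CPM. Nefl was under it there in WT and HT, at 8.37 and 9.88 CPM. Both passed through cluster 13, so in those libraries they could only come out higher. Markers under the floor on both sides were left out. The 5 of 5 and its medians were thus set in part by the floor. Of the 9 gonadotrope markers 6 were higher in every library, no more than the 75.5% seen over all genes, and 1, Fshb, was lower. Of the 6 thyrotrope markers the 3 that could be compared, Tshb, Dio2 and Isl1, were all higher. Dio2, at 7.01, 5.64 and 14.5 CPM in all other cells, passed the floor through cluster 13 and could only come out higher. Trhr, low in cluster 13 as given above, was not compared. Isl1 is not particular to thyrotropes here, since cluster 3 had more of it than cluster 13 in each library. Tshb in WT was at 743 CPM against 685 CPM in all other cells. Gpr101 and Trh, also on the thyrotrope list, were at 0 in cluster 13.

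Among functional lists, heat shock genes (9 of 10 higher), exocytosis genes (9 of 10) and cholesterol synthesis genes (9 of 10) stood above other cells in every library, at median log2 ratios between 0.61 and 1.00. With 75.5% of all genes higher, these counts are only somewhat above the background, and the median gene itself stood 0.43 to 0.51 higher. Against all other cells the MHC list stood on the low side, with 8 of 9 compared members lower in every library. Its median log2 ratios were -2.57, -2.36 and -2.59. The other cells include cluster 8, where the MHC gene H2-Aa was at 8786, 9285 and 10521 CPM. In cluster 13 H2-Aa was at 0, 0.844 and 2.27 CPM. A member under the floor for comparison in cluster 13 passed through the other cells and could only come out lower. The 8 of 9 and the medians were thus set in part by the floor. Whether the list was also low beside single clusters of hormone cells was not tested. B2m, the light chain of class I molecules, was at 23.1, 24.5 and 19.3 CPM and H2-K1, a class I heavy chain, at 55.0, 58.2 and 61.3 CPM, and Tap1, the peptide transporter, had 1, 3 and 3 counts. The unfolded protein response list had 8 of 15 members lower, and the dividing-cell genes of the G2 and M phases summed to 3.55, 5.06 and 4.54 CPM over 15 genes.

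Few genes of the cluster stood 2-fold apart between genotypes. In KO against WT, 4680 genes had 50 counts together and 20 CPM in 1 of the libraries; 25 (0.534%) stood at a log2 ratio of 1 or more and 42 (0.897%) at -1 or less. In size, 67 of 4680 (1.43%) stood at 1 or more. In HT against WT 48 of 5325 genes (0.901%) did so, 0.338% higher and 0.563% lower, and in KO against HT 59 of 5873 (1%), 0.358% higher and 0.647% lower. The median log2 ratio over genes was -0.043, -0.027 and -0.015 for KO over WT, HT over WT and KO over HT. These comparisons share libraries and are not independent. At a log2 ratio of 1 against WT and 0.5 the same way against HT there were 10 higher genes (0.214%) and 27 lower genes (0.577%) in KO. These counts depend on the pseudocount: with 50 CPM in place of 10 they were 0 and 7.

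The higher genes in KO included glutamate receptor subunits. Grin2a, a subunit of NMDA receptors, was at 16, 31.2 and 61.3 CPM, so KO was 3.84-fold (interval 1.88 to 8.86) of WT. Grin3a, another NMDA receptor subunit, was at 40.8, 59.1 and 103 CPM, and KO was 2.53-fold (interval 1.59 to 4.2) of WT. For both genes HT lay between WT and KO, and Grin3a was higher in cluster 14 (113, 132 and 203 CPM), also with KO the highest; cluster 3 had at most 2.71 CPM of Grin2a and 6.32 CPM of Grin3a. Nrgn was at 67.4, 65.8 and 169 CPM, and KO was 2.51-fold (interval 1.75 to 3.69) of WT; WT and HT were level and KO was high. AI593442, Fbxl7, Tmem41b and Oxa1l were also among the higher genes, at 2.33 to 2.59 times WT. Grin3a overlaps Ppp3r2 on the same strand, so part of its counts could belong to that gene. AI593442 also stood higher in KO than in WT over all other cells (21.8, 24.7 and 40.6 CPM) and in cluster 3 (32.8, 36.6 and 54.3 CPM). Fbxl7 likewise stood higher in KO in cluster 3 (59.0, 57.9 and 119.9 CPM) and cluster 9 (53.5, 57.4 and 104 CPM).

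Pomc led the lower genes, at 573, 1005 and 17 CPM, but it was below cluster 9 in WT and HT and near 0 in KO, as given above, and over all other cells it was at 21958, 22745 and 58.6 CPM. Nnat (neuronatin), an imprinted membrane protein, was at 5759, 3939 and 1847 CPM, so WT was 3.12-fold (interval 2.94 to 3.31) of KO. Its KO level was also lowest of the 3 in cluster 3 (1996, 1090.3 and 822 CPM), in cluster 9 (2044, 769 and 459 CPM) and over all other cells (5556, 5425 and 2981 CPM). Nnat overlaps Blcap, which is on the other strand. Dlk1 was at 359.9, 501 and 136 CPM in cluster 13, and in WT and KO cluster 9 had more (482, 235 and 192 CPM). All 3 genes had counts in cluster 9, and the part of free RNA in their differences was not tested.

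Drd4, Nppc and Gabrd were hardly counted in cluster 9, at most 4.02 CPM. The dopamine receptor gene Drd4 was at 69.2, 70.0 and 13.6 CPM, WT being 5.07-fold (interval 2.60 to 10.6) of KO; WT and HT were level. Nppc was at 246, 177 and 96.6 CPM, WT being 2.55-fold (interval 1.93 to 3.38) of KO, and Gabrd at 105, 97.9 and 39.8 CPM, WT being 2.63-fold (interval 1.70 to 4.12) of KO. In cluster 3 all 3 were lowest in KO too, Drd4 at 30.8, 18.3 and 7.16 CPM, Nppc at 97.6, 74.6 and 23.3 CPM and Gabrd at 25.4, 19.7 and 9.40 CPM. Gstm1, a glutathione transferase, was at 122, 88.6 and 20.4 CPM, WT being 5.98-fold (interval 3.52 to 10.7) of KO. In cluster 3 Gstm1 was at 79.1, 66.6 and 37.8 CPM and over all other cells at 42.1, 52.8 and 48.0 CPM, and in cluster 9 at 52.2, 46.7 and 38.4 CPM. Gstm genes are near-identical copies, so its level is uncertain.

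Fshb was at 140.1, 105 and 35.2 CPM, WT being 3.98-fold (interval 2.60 to 6.24) of KO, and its KO level was not told apart from background above. In cluster 3 it was at 7521, 10102 and 4176 CPM, lowest in KO as well, whereas over all other cells, which hold more cells of cluster 3 in KO (1662 against 449 in WT), it was at 384, 697 and 708 CPM. Among the other lower genes, Pik3r1, a regulatory subunit of PI3 kinase, was at 67.4, 47.3 and 14.8 CPM. Glul, glutamine synthetase, was at 103, 84.4 and 36.4 CPM and Hspb1, a small heat shock protein, at 62.1, 97.0 and 20.4 CPM. Pik3r1 and Glul had their highest level in WT and Hspb1 in HT, and all 3 had their lowest in KO. Hspb1 was at 1661, 1979.8 and 1958 CPM in cluster 9, far above cluster 13.

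**Figure D5:**
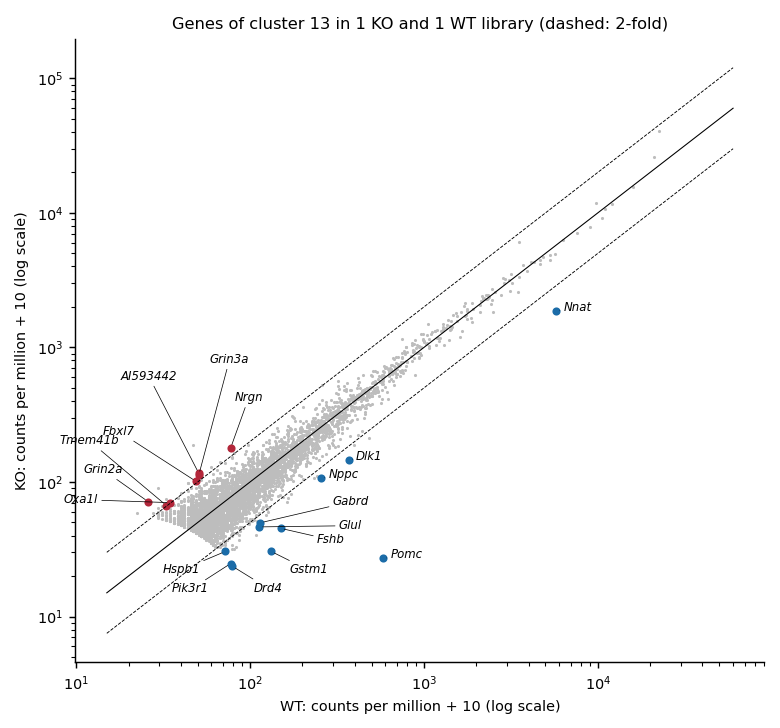
Each point is 1 of 4680 genes in cluster 13, at its CPM plus 10 in the WT (horizontal) and KO (vertical) library, both on log scales; the solid line marks equal levels and the dashed lines 2-fold. Most genes lie between the dashed lines; of the 11 named lower genes (blue) Nnat has the highest levels, and the 7 named higher genes (red) have low ones.

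The gonadotropin and thyrotropin subunits differed in which library was highest. Cga in KO was 1.81-fold (interval 1.77 to 1.84) of WT, with HT between, and Tshb in KO was 1.53-fold (interval 1.36 to 1.72) of WT, with HT lowest. Over all other cells Cga was at 7687, 12095 and 31094 CPM and Tshb at 685, 257 and 831 CPM, and in cluster 9 Cga was at 1931, 1777 and 3507 and Tshb at 368, 251 and 408 CPM. In cluster 14, where Tshb was highest, WT was the highest library (65253, 35710.1 and 50619.6 CPM). The order of the libraries for Tshb in cluster 13 was thus the same in cluster 9 and in all other cells but not in cluster 14, and the part of free RNA was not tested. Lhb in KO was 0.913-fold (interval 0.801 to 1.04) of WT, an interval that includes equal levels, and the factors Gata2, Nr5a1 and Pou1f1, given above, differed by at most 1.37-fold between any 2 libraries.

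Among the genes that differed between HT and WT, Cck, the cholecystokinin precursor, had 0, 134 and 3 counts in WT, HT and KO; the HT counts came from 5 of 139 cells, so few cells held them. Cdkn1c, an imprinted cell cycle inhibitor, was at 128, 428 and 116 CPM, and HT was 3.35-fold (interval 2.61 to 4.35) of WT. It was counted in 27.6%, 30.2% and 27.4% of cells, so the share of cells was alike and the counts per counted cell were not (3.0, 12.1 and 3.0). Rbm3, a cold-inducible RNA-binding protein, was at 37.2, 128 and 178 CPM, lowest in WT, as it was over all other cells (52.7, 112 and 125 CPM) and in cluster 9 (68.3, 168 and 168 CPM). Npm3 and Sirt2 were the other higher genes and Casd1, Prpsap1, Cited2, Sult4a1 and Rasl11a the lower ones, at 90.4, 30.4 and 109 CPM for Rasl11a, where HT alone was low.

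Of the gene lists, none with 5 or more compared members had a KO over WT median log2 ratio of 0.5 or more in size. Members above 0 are read beside 44.3% of all genes for KO over WT, 46.4% for HT over WT and 48% for KO over HT. Genes induced by glucocorticoids, the adrenal steroids released under the control of Pomc products, were the most one-sided: 0 of 7 stood higher in KO than in WT (median -0.17), 0 of 9 higher in KO than in HT (median -0.96) and 9 of 9 higher in HT than in WT (median 0.39). Klf9, a Kruppel-like factor, was at 135, 143 and 68.2 CPM, Fkbp5, a cochaperone of the glucocorticoid receptor, at 47.9, 49.8 and 17 CPM and Ddit4, a stress-induced inhibitor of mTOR signalling, at 58.5, 118 and 55.7 CPM. Klf9 and Fkbp5 were low in KO alone, while Ddit4 was high in HT alone. The list also holds Cdkn1c, named above for HT. Over all other cells its median for KO over WT was -0.47.

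Secretory granule genes stood higher in KO than in WT in 11 of 13 cases (median 0.21), against a median of 0.16 over all other cells. Chgb (chromogranin B) was at 3502, 4258 and 6112 CPM and Cadps, a priming factor of granule release, at 49.6, 97.0 and 118 CPM. Glycolysis genes stood lower in 8 of 9 (median -0.23) and the 3 compared thyrotrope genes higher in 3 of 3 (median 0.61, beside 0.53 over all other cells). Gonadotrope genes stood lower in KO in 6 of 9 (median -0.17), beside a median of -0.18 in cluster 3 and 0.98 over all other cells. The imprinted list, which holds Nnat, Dlk1 and Cdkn1c, stood lower in 9 of 12 (median -0.19).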

How the data were processed

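Cells of pituitaries from 3 genotypes were profiled in 1 library each with 3′ droplet sequencing. Tools named by the submitters' processing notes, with no order or role, are Seurat 3.1, Cell Ranger 5 and DESeq2 (no version), and the builds mm10 and GRCm38. The authors deposited, for 55403 gene rows, the raw count in each library and cluster as a sum over cells, and the count of cells with the gene. Another deposited table holds these sums as a signal scaled by 1 factor per column. The deposited cell table gives barcodes, UMAP coordinates and clusters. Library totals were 107289047, 152382545 and 133252735 counts. Rows with the same symbol were added, which left 55293 symbols; 54794 rows matched GENCODE M21 by position.

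CPM were computed on cluster totals in Python 3.11.15 with pandas 2.3.3, numpy 2.4.6 and scipy 1.17.1. Intervals of 95% are Clopper-Pearson for shares and, for ratios, the exact binomial interval given both counts; a count of 0 in the cluster allows up to 5.32, 2.53 and 3.41 CPM (3 counts). Log2 ratios add 10 CPM and understate low genes. Up to 30 leading genes were named by the smallest log2 ratio to all other cells, up to 15 by the ratio to the highest other cluster, up to 12 each way for KO and 5 each way for HT; mitochondrial, ribosomal protein, hemoglobin, sex-linked and predicted genes were not named, and some genes that the rule chose are not reported here. Gene lists of 19 cell types and 22 programmes were used. The members and lists were chosen with earlier results of these data known. The functions were checked on simulated data with known answers. Alternatives were other pseudocounts, floors, totals, references, the authors' scaled values and leaving out each library.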

Additional observations from a re-analysis of the deposited data

Results flagged for a closer look

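Fshb in cluster 13 and in all other cells stood on opposite sides between genotypes: KO over WT was -1.73 on the log2 scale in cluster 13 (140.1, 105 and 35.2 CPM in WT, HT and KO) and 0.87 over all other cells (384, 697 and 708 CPM). This difference was not tested, since each genotype has 1 library. In cluster 3, the cluster with the highest Fshb, the levels were 7521, 10102 and 4176 CPM.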

How the results depend on the processing

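The KO over WT ratio of the cluster's share stayed within its counting interval with either denominator and for cells within 2 units of the median position (1.21, chosen after seeing the data). The count of genes at a log2 ratio of 1 or more over all other cells was 69 with a pseudocount of 50 CPM and 125 with totals that leave out hormone and mitochondrial genes, in place of 261; leaving out 1 library gave 315 to 382. Over the highest other cluster it was 1 with a pseudocount of 50 CPM, 4 with the authors' scaled values and 6 with those totals, in place of 11, and 13 to 14 without 1 library. Of the 30 leading genes 18 to 30 remained in the first 30 under each alternative, 20 of them without the KO library, and of 270 recomputed log2 ratios 161 stayed within their counting interval, 109 moved beyond it and 6 lay under 1. Clusters 3 and 14 took 20.9% of the fitted weight on CPM without hormone genes and 53.2% without clusters 11 and 17 (chosen after seeing the data), in place of 40.9%. Genes higher in KO than in WT numbered 58 with a pseudocount of 1 CPM, 1 with 50 CPM and 155 with no floor, in place of 25; lower genes numbered 83, 7 and 235, in place of 42. With the condition against HT, higher genes numbered 33, 0 and 86, in place of 10, and lower genes 50, 7 and 133, in place of 27. These counts move because low genes pass or miss the threshold by construction. Of 100 recomputed log2 ratios of the named KO genes 98 stayed within their counting interval, 16 lay under the threshold of 1 in size (lowest 0.55), and none changed sign. No paired analysis was possible because the genotypes have a single library each. Depth limits what can be read: 3 counts in the WT cells of the cluster are 5.32 CPM.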
